A study of Caenorhabditis elegans with 2 samples.

Results

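The genes described here encode the heat shock proteins and molecular chaperones of Caenorhabditis elegans, set against chromatin immunoprecipitation followed by sequencing (ChIP-seq) of a tagged T07F8.4 protein. They were chosen by name: protein-coding genes of the Ensembl annotation whose symbols start with hsp-, dnj-, cct-, pfd- or sip-, plus sti-1, bag-1 and daf-21, the last of which Ensembl lists as hsp-90. The rule found 68 genes among 19973 protein-coding genes of the nuclear chromosomes. They comprised 29 genes of J domain proteins, 14 small heat shock proteins, 8 subunits of the chaperonin CCT, 6 members of the HSP70 and HSP110 group, 6 prefoldin subunits, 2 HSP90 genes, 2 co-chaperones and hsp-60.

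Both samples came from whole young adult hermaphrodites of strain OP478, which carries the unc-119(tm4063) mutation on chromosome III and the transgene wgIs478. The transgene stably expresses T07F8.4 fused at its C terminus to GFP and FLAG, and an antibody against GFP was used for the precipitation. Animals were collected 64 h after synchronization as starved L1 larvae, and the 2 samples were labelled as biological replicates. They form a single group from 1 transgenic line, so the values describe the tagged protein in a mixture of all tissues. Untagged animals and input DNA were not analysed here, and enrichment at these genes that does not depend on T07F8.4 cannot be told apart from binding of it.

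Chaperones hold unfolded proteins away from each other and help them reach or regain their fold. HSP70 works in cycles of ATP hydrolysis that J domain proteins start and nucleotide exchange factors such as BAG-1 complete; HSP90 takes over late folding steps, and the ring-shaped chaperonins HSP60 and CCT enclose their substrates. Many, though not all, of these genes rise on heat through the factor HSF-1, which binds repeated GAA and TTC blocks called heat shock elements. Others belong to the unfolded protein responses of the endoplasmic reticulum and the mitochondrion, or are expressed at high levels in unstressed animals.

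Each gene was given the summit with the highest signal value within 1000 bp of any of its transcript starts, first from the authors' list of 621 reproducible peaks and otherwise from their pooled list of 16958 regions. The signal value is the score that the authors' peak caller wrote for each region, on a scale that the labels do not name. All 621 reproducible peaks were also the 621 top regions of the pooled list by signal, with 68.2 as the lowest. Here "reproducible" therefore also means above that signal. The separate lists of replicate 1 and replicate 2 held 19514 and 17499 regions with their own signal values. No list gives read counts, so the depth behind each value is unknown.

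Of the 68 chaperone genes, 10 had a reproducible summit, 44 had a summit in the pooled list only and 14 had none. The reproducible share was 14.7% of the chaperone genes, against 2.01% of all nuclear protein-coding genes (401 of 19973). A summit of either list lay within reach of 79.4% of the chaperone genes, against 36.8% of all nuclear protein-coding genes. Among genes that had any summit, the reproducible share was 18.5% for chaperone genes (10 of 54) and 5.45% for all (401 of 7353). The list was named with earlier results of these data known, so these shares are descriptions and carry no test. Genes that encode cytosolic ribosomal proteins stood higher still on both measures, with a reproducible summit at 19.2% and any summit at 97.4% of 78 genes.

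The median signal of the chosen summit was 38.7 over the 54 chaperone genes, with quartiles of 25.8 and 52.2. Over all 7353 nuclear protein-coding genes with a summit it was 26.0, with quartiles of 20.7 and 36.2. Within the reproducible group the medians were 86.3 for chaperone genes and 88.3 for all genes, so the 10 chaperone peaks stood at about the middle of the genes in that list. None of them was among the 100 highest of the 600 nuclear peaks. The share of all genes at those 100 was not counted, so this absence says little. The median signal over all 621 peaks of the reproducible list, 21 of them mitochondrial, was 92.3. Of the 10 chaperone genes, 7 lay under it and 3 above it, against 173 of the 401 genes in all above it. The −log10 q-value stood at its upper limit of 2.92 for the 6 highest, hsp-60, dnj-28, bag-1, hsp-90, dnj-9 and hsp-3, and between 2.46 and 2.62 for hsp-12.3 and the CCT genes. Within the pooled-only group the medians were 31.7 for 44 chaperone genes and 25.2 for 6952 genes in all.

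**Figure D1:**
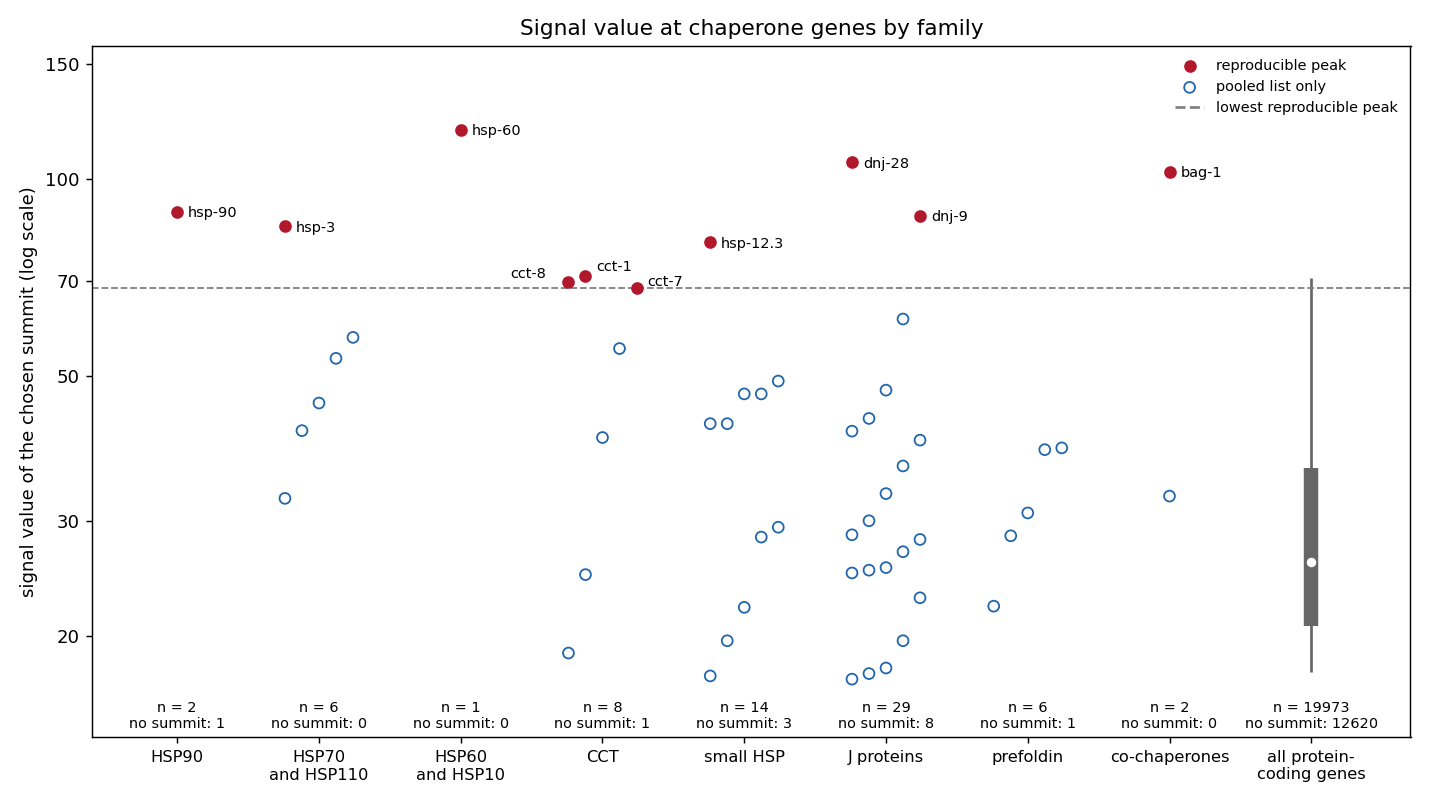
Signal value of the chosen summit (log scale) for each chaperone gene, by family, with filled points for reproducible peaks and open points for summits of the pooled list only; the grey bar at the right spans the 25th to 75th percentile over all nuclear protein-coding genes with a summit, the thin line the 5th to 95th, and the white dot is the median. The 10 filled points lie above the dashed line at 68.2, and they come from 7 of the 8 families, prefoldin being the family without one.

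The 10 reproducible summits came from 7 of the 8 families. CCT had 3 (cct-1, cct-7 and cct-8, of 8 genes), J domain proteins had 2 (dnj-28 and dnj-9, of 29 genes), and HSP60, HSP90, the HSP70 group, the small heat shock proteins and the co-chaperones had 1 each. The median signal was 55.1 over 7 CCT genes with a summit, 49.4 over 6 genes of the HSP70 group and 42.3 over 11 small heat shock genes. It was 30.9 over 5 prefoldin genes and 28.6 over 21 genes of J domain proteins, against a median of 26.0 over all nuclear protein-coding genes. The ranges overlapped widely. CCT ran between 18.8 and 71.1, the HSP70 group between 32.5 and 84.8, J domain proteins between 17.2 and 106.2 and prefoldin between 22.2 and 38.8.

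The bases under 8 of the 10 reproducible summits are printed here, and those of bag-1 and dnj-28 are not. The spelling GAANNTTC or TTCNNGAA was present in 4 of the windows and absent from 4. A window of 75 bp on each side of the summit was read from the RefSeq sequence of WBcel235 (ce11), on the strand of the chaperone gene, and cut where an annotated UTR began, which shortened hsp-3. The windows are chrIII:1619048-1619198 (hsp-60, plus strand), chrV:14685703-14685853 (hsp-90, plus strand), chrII:8185119-8185269 (cct-1, plus strand), chrIV:1094292-1094442 (cct-8, minus strand), chrX:6092125-6092241 (hsp-3, minus strand), chrIV:9444541-9444691 (hsp-12.3, minus strand), chrII:4851754-4851904 (dnj-9, plus strand) and chrV:1871869-1872019 (cct-7, plus strand). Capitals mark the letters of a match to GAANNTTC or TTCNNGAA, short spellings of part of a heat shock element. The share of all genes with a match in windows this short was not counted. In 301 bp around the summit it was 32.2% of the 401 genes with a reproducible summit. The summit is base 76 of each line.
hsp-60: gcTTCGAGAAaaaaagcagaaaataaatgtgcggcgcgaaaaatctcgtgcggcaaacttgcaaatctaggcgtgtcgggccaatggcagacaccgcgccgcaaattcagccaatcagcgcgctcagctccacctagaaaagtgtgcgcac
hsp-90: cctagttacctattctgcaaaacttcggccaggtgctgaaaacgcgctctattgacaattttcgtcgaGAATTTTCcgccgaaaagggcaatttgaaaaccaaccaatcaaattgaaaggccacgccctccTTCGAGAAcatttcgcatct
cct-1: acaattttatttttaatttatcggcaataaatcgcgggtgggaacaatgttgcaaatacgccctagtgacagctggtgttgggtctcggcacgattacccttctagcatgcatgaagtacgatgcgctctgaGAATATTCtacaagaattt
cct-8: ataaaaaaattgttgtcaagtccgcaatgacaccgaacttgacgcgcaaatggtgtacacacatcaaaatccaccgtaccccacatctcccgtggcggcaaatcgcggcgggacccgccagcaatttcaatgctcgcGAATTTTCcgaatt
hsp-3: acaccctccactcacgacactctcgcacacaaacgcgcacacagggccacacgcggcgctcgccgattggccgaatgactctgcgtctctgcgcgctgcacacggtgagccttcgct
hsp-12.3: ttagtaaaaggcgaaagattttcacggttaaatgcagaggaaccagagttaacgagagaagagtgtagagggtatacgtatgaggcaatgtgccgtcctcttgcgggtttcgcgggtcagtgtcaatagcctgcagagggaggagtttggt
dnj-9: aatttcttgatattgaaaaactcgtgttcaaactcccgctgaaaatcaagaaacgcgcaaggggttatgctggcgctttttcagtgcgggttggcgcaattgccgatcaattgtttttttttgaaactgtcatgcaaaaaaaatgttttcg
cct-7: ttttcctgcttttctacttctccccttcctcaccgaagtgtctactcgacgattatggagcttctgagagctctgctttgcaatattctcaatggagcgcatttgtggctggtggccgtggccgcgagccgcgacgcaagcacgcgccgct
The windows of hsp-60 and hsp-90 share the 8 bases of a TTCNNGAA match, TTCGAGAA, and those of hsp-90 and cct-8 share GAATTTTC. The window of hsp-3 has the highest GC content of the 8, 65.0%, and no match. Those of hsp-12.3, dnj-9 and cct-7 have no match either. The hsp-12.3 window reaches into the RNA genes F38E11.24 and F38E11.11, and the cct-7 window into the RNA gene T10B5.13.

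Highest in signal was the gene of the mitochondrial chaperonin. The summit upstream of hsp-60, which encodes the chaperonin ring, had a signal of 119.1 and rank 163 of 621. Its values were 57.8 in replicate 1 and 60.9 in replicate 2, and the replicate summits lay 0 and 2 bp from the pooled one. The peak spanned chrIII:1618905-1619340 (ce11, as all positions here). Its summit at base 1619123, between genes, was 619 bp upstream of hsp-60 and 194 bp upstream of Y22D7AL.10, which starts on the opposite strand 812 bp away. RefSeq names the product of Y22D7AL.10 a mitochondrial heat shock protein of the HSP10 kind, the lid of the same chaperonin. Its symbol did not meet the naming rule. A single peak thus stood between the genes for both parts of the mitochondrial chaperonin, nearer to the lid.

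The cytosolic chaperonin CCT, which folds actin and tubulin among others, had the 3 lowest signals of the 10 reproducible chaperone peaks. For cct-1 (subunit alpha) the signal was 71.1 with rank 563, with 45.1 in replicate 1 and 26.4 in replicate 2. For cct-8 (subunit theta) it was 69.6 with rank 594, with 44.7 in replicate 1 and 21.5 in replicate 2. For cct-7 (subunit eta) it was 68.3 with rank 620, with 36.4 in replicate 1 and 34.0 in replicate 2. Each of the 3 had the higher signal in replicate 1, but the lists carry their own scales. By rank, cct-1 (404 against 1276) and cct-8 (418 against 2269) stood better in replicate 1. For cct-7 the rank was 688 in replicate 1 and 671 in replicate 2. All 3 summits lay between genes, 249 bp upstream of cct-1 (peak chrII:8184976-8185411), 447 bp upstream of cct-8 (chrIV:1094149-1094584) and 302 bp upstream of cct-7 (chrV:1871726-1872161).

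The next CCT gene was cct-5 with a signal of 55.1, rank 985 of the pooled list, and 37.3 in replicate 1 against 17.4 in replicate 2. Its summit lay 472 bp upstream, in a gap shared with the head-to-head gene F25F2.1. The other CCT genes had 40.3 (cct-6, inside its coding exons), 24.8 (cct-4) and 18.8 (cct-2), and cct-3 had no summit in any of the 4 lists. Genes for subunits of the same complex thus ranged between no summit and a reproducible one.

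The HSP90 genes that met the naming rule were hsp-90, of the cytosol, and hsp-75, of mitochondria. The peak of hsp-90, at chrV:14685560-14685995, had a signal of 89.2 and rank 340. The replicates stood far apart, with 30.2 in replicate 1 (rank 1055) and 65.7 in replicate 2 (rank 114). Replicate 1 also had a higher summit of 38.7 (rank 594) that stood 347 bp away, nearer to the downstream of the annotated starts. The chosen summit lay 382 bp upstream of that start, inside an intron of a longer annotated hsp-90 transcript, and 293 bp upstream of C47E8.4, a FAM50 homologue on the opposite strand. For hsp-75 the pooled list had no summit, and only replicate 1 had one, at 12.2.

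All 6 genes of the HSP70 and HSP110 group had a summit, and 1 was reproducible. That was hsp-3, which encodes a BiP chaperone of the endoplasmic reticulum, with a signal of 84.8, rank 386, and 44.5 in replicate 1 against 42.2 in replicate 2. Its summit, in the peak chrX:6091948-6092383, was 42 bp upstream of the start, the closest of the 10. The other BiP gene, hsp-4, known for its induction by the unfolded protein response, had 32.5, with 19.3 in replicate 1 and 11.5 in replicate 2. The constitutive cytosolic gene hsp-1 reached 57.3 with 27.8 in replicate 1 and 27.5 in replicate 2, and the mitochondrial gene hsp-6 reached 53.2 with 30.8 in replicate 1 and 23.2 in replicate 2. The heat-inducible gene hsp-70 had 41.3 with a summit within 100 bp in replicate 1 only (20.3), in a coding exon that also lies within an intron of uggt-2, and hsp-110 had 45.5 with one in replicate 2 only (29.0). The highest summit of the other replicate near these genes was 13.8 for hsp-70, 635 bp away, and 24.1 for hsp-110, 202 bp away.

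The 5 pooled-only summits of the HSP70 group shared a position. All 5 lay inside the gene's own coding exons, between 264 bp downstream of the nearest annotated start at hsp-1 and 935 bp downstream at hsp-6. For hsp-4, on the minus strand, the nearest start, 323 bp away at base 7351329, lies inside the gene. Its longest annotated extent begins at base 7352645, farther from the summit. Over all 44 pooled-only chaperone genes, 13 summits (29.5%) lay in the gene's own coding exons, against 20.4% of 6952 pooled-only genes in all. None of the 10 reproducible chaperone summits did, against 8 of the 401 for all nuclear protein-coding genes.

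Genes of J domain proteins, the partners that hand substrates to HSP70, had 2 reproducible summits. The one at dnj-28 had a signal of 106.2, rank 213, with 57.7 in replicate 1 and 45.0 in replicate 2, and lay 95 bp upstream of the start in the peak chrI:2996175-2996610. The one at dnj-9 had a signal of 87.9, rank 358, with 47.7 in replicate 1 and 39.1 in replicate 2, and lay 227 bp upstream in the peak chrII:4851777-4851885. Both were above the next gene of the family, dnj-29, at 61.1, whose summit 198 bp upstream had a counterpart in replicate 2 only (35.2, rank 621 there). Next came dnj-19 at 47.6, with 32.3 in replicate 1 and 14.2 in replicate 2, where the head-to-head gene nhr-47 started nearer. The genes dnj-13 and dnj-12, which encode partners of HSP70 in the cytosol, had 43.1 and 41.2, both inside their own coding exons. For dnj-13 the replicates had 28.8 and 22.6, and for dnj-12 only replicate 2 had a summit within 100 bp, at 25.8. The 19 pooled-only summits of the family ran from dnj-29 down to dnj-2 at 17.2, and 8 of the 29 had none (dnj-3, dnj-7, dnj-16, dnj-17, dnj-21, dnj-24, dnj-26 and dnj-27).

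The co-chaperone bag-1, a nucleotide exchange factor of HSP70, had a signal of 102.8 and rank 237. It had the highest value of the 10 in replicate 1, 69.7 (rank 132), and 37.7 (rank 526) in replicate 2. Its summit lay 180 bp upstream of the start, in the peak chrI:6564413-6564848 and in the gap behind the end of mei-2. The co-chaperone sti-1, which links HSP70 to HSP90, had a summit 29 bp upstream of its start with a signal of 32.8, and 21.1 in replicate 1 against 10.4 in replicate 2.

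Prefoldin passes unfolded actin and tubulin to CCT, and none of its 6 subunit genes had a reproducible summit. The highest was pfd-4 at 38.8, with 25.2 in replicate 1 and 14.2 in replicate 2, 128 bp upstream of its start. The protein-coding gene B0035.22 started nearer to that summit, at 74 bp. For pfd-5 the signal was 38.6, with 12.1 in replicate 1 and 23.9 in replicate 2, 137 bp upstream. For pfd-3 it was 28.5, with 16.7 in replicate 1 and 14.5 in replicate 2, 22 bp upstream. The genes pfd-1 (30.9) and pfd-6 (22.2) had a summit within 100 bp in replicate 2 only, at 19.5 and 11.03, and pfd-2 had none in any list. The protein-coding start nearest to the pfd-1 summit was that of F01G4.6, 267 bp away. The pfd-6 summit lay in an intron of F21C3.6. All 5 prefoldin summits lay upstream of their gene, against 56.9% of 6952 pooled-only genes in all. None lay in a coding exon of the gene, against 20.4% in all.

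Small heat shock proteins bind unfolding proteins without ATP, and their genes include the most strongly heat-induced ones of the worm. Their 1 reproducible summit was assigned to hsp-12.3, with a signal of 80.2, rank 431, and 38.6 in replicate 1 against 42.1 in replicate 2. It differed in position from the other 9: it lay 891 bp downstream of the start, beyond the end of the gene, in the peak chrIV:9444398-9444833. The snRNA gene F38E11.11 began 26 bp from it and the ncRNA gene F38E11.24, on the opposite strand to the snRNA gene, ended 23 bp from it. The nearest protein-coding start was 576 bp away, that of F38E11.9.

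The hsp-16 genes, which lie as divergent pairs on chromosome V, one pair being present in 2 inverted and near-identical copies, had no reproducible summit. The genes hsp-16.2 and hsp-16.41 shared a highest summit of 47.0, with a counterpart in replicate 2 only (32.2), which lay in the 3′ UTR of hsp-16.41 and 909 bp upstream of hsp-16.2. They shared 4 further pooled summits within 1000 bp, with signals between 19.0 and 28.3. One of these, at 21.3, lay in the gap between the divergent starts, 111 bp upstream of hsp-16.2 and 110 bp upstream of hsp-16.41. The highest summit of replicate 1 near this pair, 28.1, lay 775 bp from the chosen one. In the other cluster a single summit, of 42.3, stood between hsp-16.48 and its copy hsp-16.49, 813 and 822 bp downstream of their starts, with 16.5 in replicate 1 and 33.9 in replicate 2. The outer genes hsp-16.1 and hsp-16.11 started 1162 and 1133 bp from that summit and had none within 1000 bp. How the authors handled reads that map to several places is not given in the labels, and reads from identical copies cannot be assigned to one of them. The gene sip-1, which encodes a small heat shock protein of the embryo, had 49.1 at a summit 720 bp downstream of its start, with 36.5 in replicate 1. That summit lay between genes, beyond the end of sip-1, and F43D9.8 started nearer to it, at 598 bp. The summit of replicate 2 near sip-1, 40.6 (rank 429), lay 466 bp from the chosen one. The remaining 5 pooled-only genes of the family, hsp-25, hsp-12.2, hsp-17, hsp-43 and hsp-12.1, had signals between 17.4 and 29.4, and hsp-12.6, the neighbour of hsp-12.3, had no summit in any list.

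**Figure D2:**
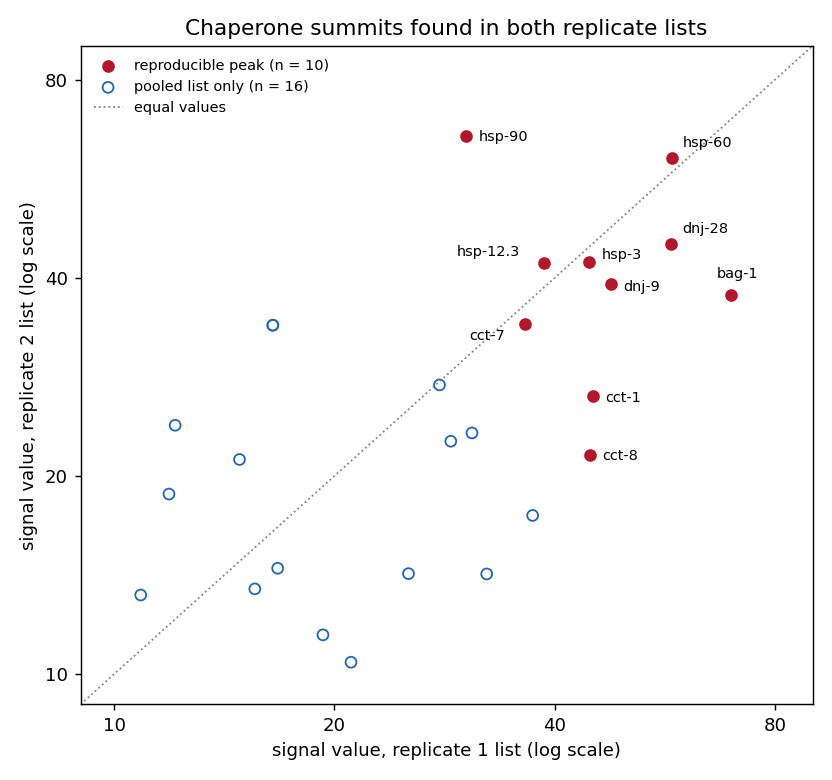
Signal value in the list of replicate 1 (x axis) and replicate 2 (y axis), both on log scales, for the 26 chaperone genes whose chosen summit had a summit within 100 bp in both lists; filled points are reproducible peaks, open points are summits of the pooled list only, and genes that share a summit lie on one point. The point of hsp-90 lies far above the line of equal values, with 30.2 in replicate 1 and 65.7 in replicate 2, and cct-8, cct-1 and bag-1 lie below it.

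A summit within 100 bp was present in both replicate lists for 26 of the 54 chaperone genes (48.15%), against 34.8% of the 7353 nuclear protein-coding genes with a summit. All 10 reproducible chaperone summits had one in both lists, against 94.0% of the 401. Of the 44 pooled-only chaperone summits, 16 (36.4%) had one in both lists, 24 in one list and 4 in neither (cct-4, dnj-2, dnj-14 and hsp-43). Over all 6952 pooled-only genes, 2184 (31.4%) had one in both lists, 3927 in one list and 841 in neither. The signal was higher in replicate 1 for 7 of the 10 and higher in replicate 2 for hsp-60, hsp-90 and hsp-12.3. The 2 lists carry their own scales, so ranks are the fairer comparison, and by rank the split was 5 and 5. Only 6 of the 10 were among the 621 highest regions of both replicates, and hsp-90, cct-1, cct-8 and cct-7 were the exceptions.

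**Figure D3:**
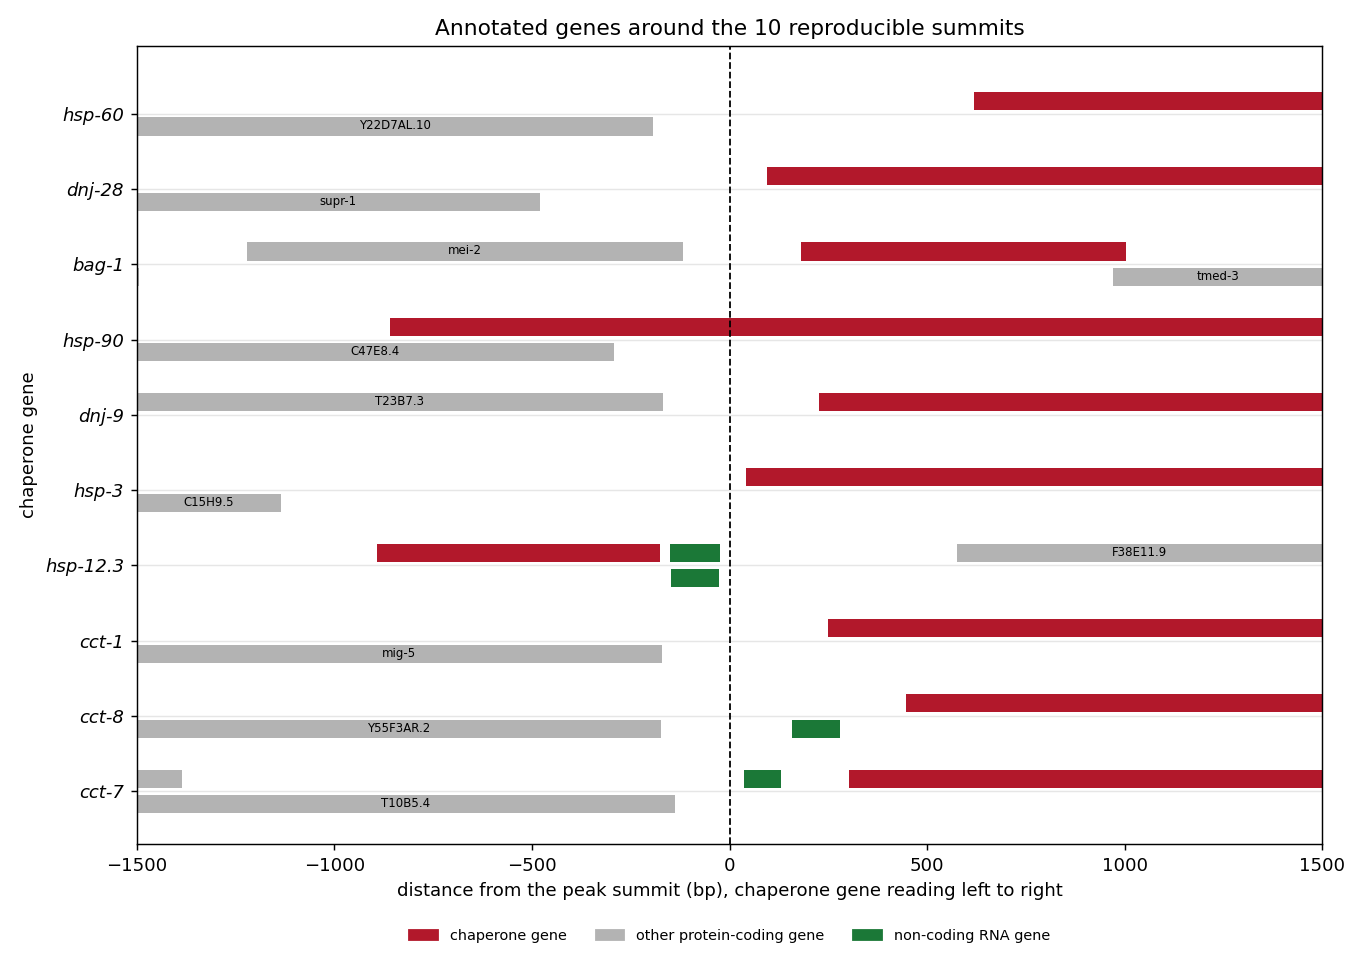
Annotated genes within 1500 bp of the 10 reproducible summits (dashed line at 0), drawn to scale in bp with each chaperone gene reading left to right; bars above a grey line are on the strand of the chaperone gene and bars below it on the other strand. In 9 of the 10 rows the summit stands left of a start of the red chaperone gene (for hsp-90, left of its second start inside the bar), while at hsp-12.3 it stands right of the gene's end beside the green RNA genes.

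Position set the 10 summits apart into those nearest to the chaperone gene and those nearest to a neighbour. The nearest transcript start of any gene type was the chaperone gene's own at 4 of the 10: bag-1, dnj-9, dnj-28 and hsp-3. Those 4 were 5.88% of the chaperone genes, against 0.711% of all nuclear protein-coding genes. With protein-coding starts alone the same 4 genes remained, against 1.52% of all. At hsp-60, hsp-90, cct-1 and cct-8 a head-to-head protein-coding gene was nearer, and at cct-7 and hsp-12.3 an RNA gene. A peak list does not say which neighbour a summit belongs to.

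Head-to-head arrangements were frequent. The summit lay upstream both of the chaperone gene's start and, by at most 1000 bp, of the start of a protein-coding gene on the opposite strand at 6 of the 10 (60%), against 33.7% of the 401 genes with a reproducible summit. These were hsp-60 with Y22D7AL.10, hsp-90 with C47E8.4 (the 2 genes overlap, and the summit lies in an intron of hsp-90), dnj-28 with supr-1, cct-1 with mig-5 (a Dishevelled homologue), cct-7 with T10B5.4 and cct-8 with Y55F3AR.2. The summit stood 171 bp upstream of mig-5, 137 bp upstream of T10B5.4 and 174 bp upstream of Y55F3AR.2, so at all 3 CCT loci it was closer to the partner than to the CCT gene. Among pooled-only genes the share was 22.7% for chaperone genes and 14.4% for all.

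The median offset of the 10 reproducible summits from the start was -238 bp, and 9 of 10 lay upstream, against a median of -249 bp and 77.3% upstream for the 401. The pooled-only summits of the 44 chaperone genes had a median offset of -21.5 bp with 52.3% upstream, against -80 bp and 56.9% upstream for all 6952.

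**Figure D4:**
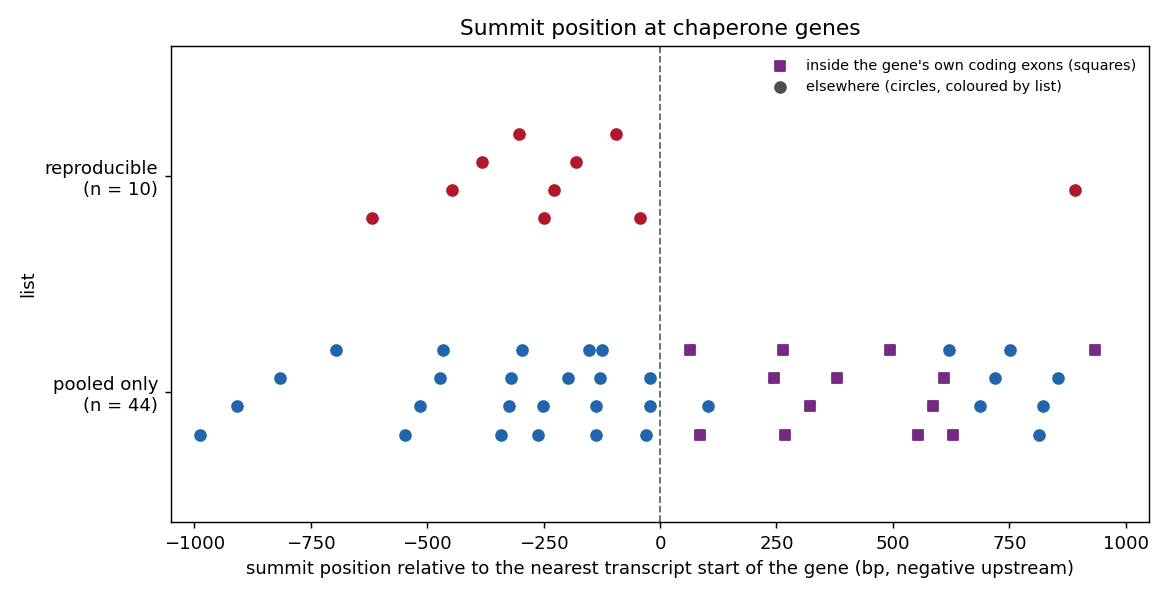
Summit position relative to the nearest transcript start of the gene (x axis, bp, negative upstream) for the 10 reproducible and the 44 pooled-only chaperone summits; squares mark summits inside the gene's own coding exons and the vertical spread within a group has no meaning. Of the reproducible summits, 9 lie between 619 and 42 bp upstream and that of hsp-12.3 lies 891 bp downstream, while the pooled-only summits spread over both sides of the start with 13 squares.

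A gene for a small or other non-coding RNA lay within 300 bp of the summit at 3 of the 10 chaperone genes with a reproducible summit (30%), against 49.4% of the 401 nuclear protein-coding genes with a reproducible summit. These were the 2 genes beside hsp-12.3, the ncRNA gene T10B5.13, 36 bp from the summit of cct-7, and the ncRNA gene Y55F3AR.4, 158 bp from the summit of cct-8. The other 7 reproducible summits, of hsp-60, dnj-28, bag-1, hsp-90, dnj-9, hsp-3 and cct-1, had none. Among pooled-only summits, 6 of 44 chaperone genes had such an RNA gene within 300 bp, against 10.7% of the 6952 nuclear protein-coding genes.

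The capitals in the printed windows are part of a wider count. In 301 bp around the summit, 6 of the 10 reproducible chaperone summits (60%) held at least 1 of the spellings GAANNTTC and TTCNNGAA, against 32.2% of the 401. The 6 were hsp-60, hsp-90, bag-1, cct-1, cct-7 and cct-8. The pooled-only summits held one at 52.3% of 44 chaperone genes and at 30.2% of 6952 genes in all. The 2 spellings read the same on both strands and can overlap each other. In the window of 250 bp before to 50 bp after each gene's first start, without regard to any peak, a match was present in 34 of 68 chaperone genes (50%) and in 32.5% of all nuclear protein-coding genes. The share was higher for chaperone genes in each of these 3 counts, which carry no test, and a match says nothing of what binds there. The TATA box TATAAA was present around 4 of the 10 reproducible chaperone summits (40%) and 23.9% of the 401. The B box core GTTCGA of tRNA genes, searched on both strands, was present at 1 of the 10, dnj-9, and at 33.7% of the 401. Median GC content in 101 bp was 50.5% in both groups.

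A list of other genes of the folding network was counted in the same way. Of its 63 co-chaperones, prolyl isomerases, regulators and stress response genes, 61 were matched in the annotation. A summit was present at 42 of these (68.9%), against 36.8% of all nuclear protein-coding genes. A reproducible summit was present at 2 (3.28%), against 2.01% of all nuclear protein-coding genes. One was cdc-48.1, the segregase that pulls ubiquitinated proteins apart, with a signal of 176.7, rank 58, higher than any chaperone gene, and 113.6 in replicate 1 against 58.6 in replicate 2, 154 bp upstream of its start. The other was ahsa-1, which activates the ATPase of HSP90, with 77.0, rank 466, and 39.3 in replicate 1 against 29.4 in replicate 2, though C01G10.7 starts nearer to the summit. None of 23 prolyl isomerase genes and none of 12 genes of the endoplasmic reticulum list had a reproducible summit, while 15 and 11 had a summit in the pooled list. With a share of 2.01% over all nuclear protein-coding genes, the absence of reproducible summits from lists this short says little about them. The regulator gene hsf-1 had no summit, xbp-1 had 34.5 inside its coding exons and atfs-1 had 22.8.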

How the data were processed

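ChIP-seq peak lists of 2 biological replicates were used. The authors deposited, for build ce11, 1 list of regions per replicate, 1 of both replicates pooled, and 1 of reproducible peaks selected by the irreproducible discovery rate (IDR). The replicate and pooled lists came from the alignments and 1 further file, per the deposited descriptions. The aligner, the peak caller, the IDR threshold and the handling of reads with several map positions are all not given in the sources used here. The signal of each region is the value the authors deposited, and so are its −log10 q-value, which 421 of 621 reproducible peaks held at its maximum of 2.92, and its summit offset. Regions were ranked by signal within a list, and signals of different lists were not combined. The 4 lists on ce10 were not used.

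Starts, exons and RNA genes came from Ensembl release 115. Of the symbols, 2 stand for 2 genes each (hsp-16.1 and hsp-16.48); the copies are named here by RefSeq's symbols hsp-16.11 and hsp-16.49, matched by coordinates. Every gene took its own summit, so neighbouring genes could share one: 54 chaperone genes had 52 distinct summits, and the 401 genes with a reproducible summit had 303. Replicate summits within 100 bp were counted as shared. Computations used Python 3.11.15, numpy 2.4.6 and pandas 2.3.3, with figures by matplotlib 3.10.9, and the assignment was tested on simulated data.

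The members and lists were chosen with earlier results of these data known, so counts stand beside those over all nuclear protein-coding genes and no p-value is given. Named were all members with a reproducible summit, the 5 highest pooled-only members, the highest of each family, a set of well-known members and related genes, and the RNA genes near named summits; other members were named after their values were seen.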

Additional observations from a re-analysis of the deposited data

How the results depend on the processing

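The number of chaperone genes with a reproducible summit was 10. With a window of 500 bp it was 8 (all nuclear protein-coding genes 1.27%), as hsp-60, the highest of them, and hsp-12.3 dropped out. It was 9 when only summits from 1000 bp upstream to 100 bp downstream were allowed, a setting chosen after seeing the data. Requiring the nearest start of any type, or the nearest protein-coding start, to be the gene's own left 4, in 3 families and with 0 RNA genes nearby. With these settings 16 and 17 genes were in both replicate lists, the median signal was 30.03 and 30.02, and the median offset -137.5 bp in each. Keeping the reproducible peaks above the median signal left 3 (bag-1, dnj-28 and hsp-60), in 3 families, with 0 RNA genes nearby and a median offset of -180 bp, against 0.866% of all nuclear protein-coding genes. The median signal was 32.5 with 500 bp and 32.0 without downstream summits. Each of these settings let fewer summits count, or fewer count as reproducible, and the cause of the shifts was not tested.

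Taking 1 replicate list alone, with its 621 highest regions in place of the reproducible list, gave 9 to 9 genes (all nuclear protein-coding genes 1.97% without replicate 1 and 2.07% without replicate 2), 6 to 7 families and a median offset of -214 to -144 bp; median signals of 19.8 to 21.9 are on the scale of the replicate lists. Without replicate 1, cct-1, cct-7 and cct-8 dropped out, which left CCT with 0, and dnj-29 and sip-1 came in; without replicate 2, cct-7 dropped out. In all, 29 recomputed values stayed within the limits set for them, 21 moved beyond them and 0 changed sign. No paired analysis was possible because both samples belong to 1 group. Read depth is unknown, so no value has a counting error.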

Other observations

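Outside the reproducible peaks, 6 chaperone genes had a small RNA gene within 300 bp of a pooled-only summit (6 of 44, against 10.7% of 6952 nuclear protein-coding genes), and at 3 of them the summit lay inside it. For dnj-19 (signal 47.6) it was the ncRNA gene C24G6.10, for dnj-14 (39.9) the ncRNA gene DL2.2 and for pfd-3 (28.5) the ncRNA gene T06G6.15. The ncRNA gene C08F8.13 started 1 bp from the summit of pfd-1 (30.9), the piRNA gene 21ur-14367 lay 31 bp from that of hsp-12.1 (17.4) and the ncRNA gene C14F11.20 lay 99 bp from that of hsp-43 (19.7).

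Of the 14 chaperone genes without a summit in the pooled list, 4 had one in a replicate list. For dnj-16 both replicates had one, with signals of 14.2 in replicate 1 and 15.1 in replicate 2. The other 3 were hsp-75 and dnj-24 in replicate 1, at 12.2 and 12.4, and dnj-17 in replicate 2, at 14.1. The remaining 10, cct-3, pfd-2, hsp-12.6, hsp-16.1 and hsp-16.11 among them, had no summit within 1000 bp in any of the 4 lists.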
